A study of Danio rerio with 12 samples.

Results

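The regions described here are stretches of open chromatin called in double negative cells of the zebrafish embryo and in no other sorted fraction. They are the peaks of the double negative list on chromosomes 1 to 25 that overlap no peak of the other 3 lists by 1 bp or more. There were 51181 of them among the 166282 double negative peaks on these chromosomes, or 30.8% (Wilson 95% interval 30.6 to 31.0), and among 529593 peaks over the 4 lists. The 3 double negative peaks on the mitochondrial chromosome were left out. The rule itself fixes that share, which is therefore a description of the choice.

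All embryos were wild-type by their label, carried the transgenes kdrl:mCherry and sele:GFP, received no treatment and were dissociated whole at 72 hours post fertilisation. Cells were sorted into kdrl:mCherry+ sele:GFP+ (double positive), kdrl:mCherry+ sele:GFP- (mCherry only), kdrl:mCherry- sele:GFP+ (GFP only) and kdrl:mCherry- sele:GFP- (double negative) fractions of 3 samples each. Between 12000 and 50000 cells went into each ATAC-seq reaction, in which the transposase Tn5 cuts and tags accessible DNA. The labels name 1 peak list for all 3 samples of a fraction, so no value below has a replicate check, no test across peaks was made, and intervals cover counting error only. A fraction is defined by its gate alone: the double negative gate takes any cell without detectable mCherry or GFP, and endothelial cells with a dim reporter cannot be told apart from other cells in it.

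The reporter kdrl:mCherry marks vascular endothelium, where kdrl serves as a receptor for the growth factor VEGF. The reporter sele:GFP is named after sele, the gene of E-selectin, with which endothelial cells hold on to passing leukocytes. What is left after both reporters are removed is a mixture of most tissues of a larva near hatching, such as muscle, nervous system, skin, gut and skeleton. Open chromatin marks promoters, which are often open in many cell types, and enhancers, which are often open in few. The label of these regions as those of non-vascular tissues could not be checked against marker genes, since no danRer7 annotation was used here. In such a mixture a region widely open in a rare cell type and a region weakly open in many cells give the same number of reads and cannot be told apart.

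Regions of the double negative fraction alone were low and numerous. The median summit held 20 reads (quartiles 17 and 26), and the 95th percentile was 41. Double negative peaks that were also called elsewhere had a median of 31 reads (22 and 50), and those called in all 4 lists a median of 44 (29 and 70). Height is the summit's read number over the genome-wide background level of its list, and on that scale the medians were 4.48, 6.94 and 9.85. Summit reads are not in the lists as such, and were worked out from 2 values that the authors deposited for each peak, the fold and the −log10 p. The median fold over the expected background was 3.48 (quartiles 3.05 and 4.32) against 4.76 in the shared peaks, and the median −log10 q was 5.59 against 11.7. The range was wide, with heights from 2.46 to 43.2.

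Median height and median width of double negative peaks rose with the number of other lists that shared them. A wider peak overlaps other lists more readily, so part of the rise in width can follow from the overlap rule, which was not tested. A low peak may also miss the calling threshold of another list. The part of this in the rise in height was not tested either. Median height went from 4.48 in the regions called in no other list to 5.15 in the 29950 peaks with 1 other list, 6.05 in the 29484 with 2 others and 9.85 in the 55667 with all 3. Median width went from 303 bp to 344, 390 and 503 bp. Among peaks with a single partner, the 2189 shared with double positive matched the double negative regions most closely, with a median height of 4.48 and a median width of 302 bp. Those shared with GFP only had a median height of 4.93, and those shared with mCherry only 5.38.

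The share of double negative peaks that no other list held depended strongly on height. It was 55.0% below height 4 (54.4 to 55.6), 35.8% from 5 to 6 and 17.2% from 8 to 10 (16.7 to 17.8). From 10 to 15 it was 8.56%, from 15 to 20 it was 2.18%, and at 20 or more it was 0.222% (0.144 to 0.343). Each other list showed the same downward order over these bins, at other levels. Over all heights the peaks called in 1 list alone were 21.8% of the GFP only list (30143 peaks), 12.8% of the mCherry only list (17185) and 7.93% of the double positive list (7190). With lists cut to equal length the shares were 27.1% for double negative, 22.5% for GFP only, 18.2% for double positive and 10.9% for mCherry only, so the order of the last pair was reversed. Equal length leaves the double positive list whole. In the lists as deposited, from height 5 to 6, that share was 20.4% for GFP only, 14.4% for mCherry only and 7.91% for double positive. The double negative share exceeded the other 3 in each bin up to height 10, and the GFP only share did so in each bin above it. From 15 to 20, 7.72% of GFP only peaks (7.14 to 8.34) were called in that list alone.

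**Figure D1:**
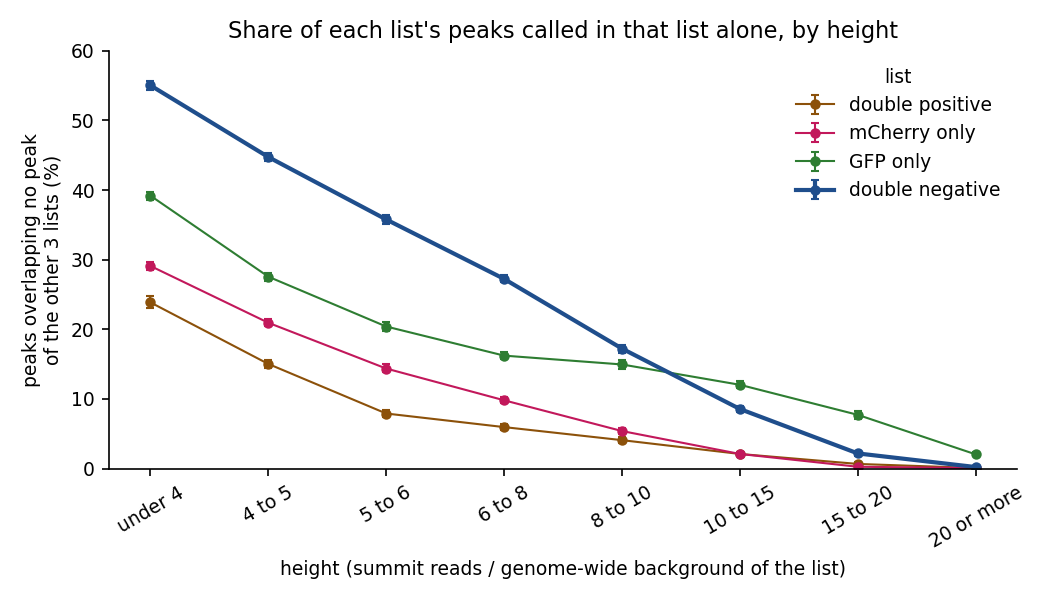
Percent of the peaks of each list that overlap no peak of the other 3 lists (y axis) against height, in summit reads per background read (x axis). Points are shares and bars are Wilson 95% intervals. The double negative line starts at 55.0% and lies above the others up to height 10, and the GFP only line lies above it from there on.

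At the border of the rule the values of both sides were alike. There were 354 regions with a gap of 1 to 50 bp to the nearest peak of another list, and 6 more adjoined one with a gap of 0 bp. The 354 had a median height of 4.03, a median width of 270.5 bp and a median −log10 q of 4.20. On the other side, 525 double negative peaks overlapped other lists by no more than 50 bp, with a median height of 3.81, a median width of 263 bp and a median −log10 q of 3.81. The regions near the border made up 0.692% of the class.

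The 10 regions with the highest fold were all wider than the median region of the class. They lay on 9 chromosomes, held 64 to 92 reads at the summit, had folds of 11.8 to 14.95 and were 381 to 850 bp wide. Their gaps to the nearest peak of another list ran from 1702 to 16799 bp, on both sides of the class median of 3028 bp. The leading region, chr1:54192078-54192458 in danRer7, held 92 reads (exact Poisson 95% interval 74.2 to 113) with a fold of 14.95. Its nearest neighbours were a GFP only peak at 16799 bp, a double positive peak at 16885 bp and an mCherry only peak at 24214 bp. It was therefore the most isolated of the 10 as well as the one with the highest fold.

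The region chr22:4810421-4810845 held 82 reads (65.2 to 102) and lay 7655 bp from the nearest foreign peak, which was an mCherry only peak. At chr24:5863089-5863599 there were 75 reads (59.0 to 94.0), and peaks of GFP only and mCherry only lay 4557 and 4586 bp away. With 85 reads (67.9 to 105), chr2:16200615-16201049 lay 1702 bp from a GFP only peak, the shortest gap of the 10. In 8 of the 10 the expected background at the summit was between 1 and 1.17 times the genome-wide background of the list, and in the other two it was 1.19 and 1.20 times. Chromosome 7 held a pair of them, from 15619487 to 15620096 with 66 reads and from 20335826 to 20336309 with 76 reads.

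The regions with the most reads were of another kind. At height 20 or more there were 20 regions with 90 to 193 reads, and their folds ran from 1.39 to 14.95 with a median of 2.91. In 19 of the 20 the expected background at the summit was at least 2 times the genome-wide background, with a median over the 20 of 7.30 times and a maximum of 27.2 times. Over all 51181 regions, 2394 had an expected background that high. The same 19 lay within 2.5 kb of a peak of another list, and 11 lay within 1 kb, against 8638 of all regions within 1 kb. The exception was the leading region on chromosome 1.

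The tallest of these 20 were narrow and lay beside taller shared peaks. The region with the most reads, chr8:45717612-45717824, had 193 reads (167 to 222) but a fold of 1.59. All 3 other lists had a peak within 218 bp of it, and the nearest shared double negative peak, 1478 bp away, had 238 reads and was called in all 4 lists. The region chr4:27870072-27870271 had 163 reads, a fold of 1.46 and a width of 200 bp, the smallest width in any list. A double negative peak of 200 reads shared by all 4 lists lay 200 bp away. The region chr20:54319940-54320154 had 159 reads, a fold of 1.39 and an mCherry only peak at 77 bp. In the median over the 20, the nearest shared double negative peak was 1274 bp away and had a height of 26.4, and in 13 of the 20 that peak was called in all lists.

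Median width rose with height up to height 15 and was lower above it. At a given height these regions were narrower than peaks of all 4 lists. The overlap rule leans this way by construction, since a wider peak overlaps peaks of other lists more readily. How much of the difference comes from the rule was not tested. The median width was 303 bp (quartiles 236 and 409) against 503 bp in double negative peaks called everywhere. Within bins below height 6 the difference in medians was 32 to 37 bp. Below height 4 the medians were 245 and 277 bp, and from height 5 to 6 they were 343 and 375 bp. From height 8 to 10 they were 438 bp (433 to 445) and 472 bp (467 to 476). The difference was larger among tall peaks: from height 10 to 15 the medians were 472 bp (460 to 483) and 550 bp (544 to 554). From height 15 to 20 they were 463.5 bp (440 to 500) and 652 bp (645 to 660). At height 20 or more they were 335.5 bp (215 to 421, 20 regions) and 772 bp (764 to 779).

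**Figure D2:**
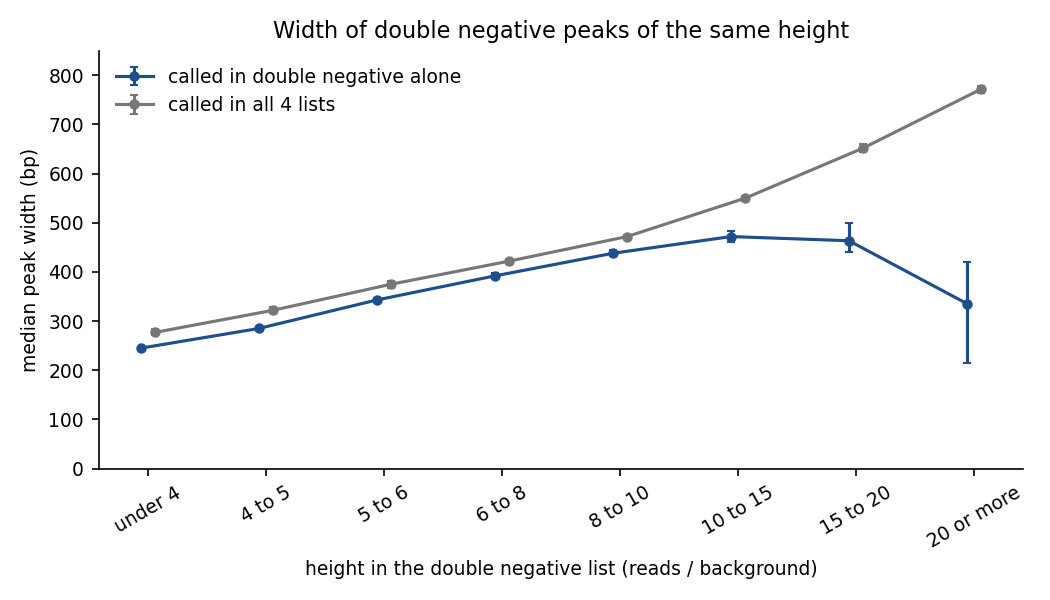
Median width in bp (y axis) of double negative peaks called in that list alone and of those called in all 4 lists, by height (x axis). Bars are 95% intervals of the median from binomial order statistics. Medians of 245 and 277 bp below height 4 move apart to 335.5 and 772 bp at height 20 or more.

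Compared with the regions that other lists held alone, double negative regions had a larger median width. In the lists as deposited their median height was nearly the same. Median height was 4.48 here, 4.46 in GFP only alone, 4.26 in mCherry only alone and 4.41 in double positive alone. The tall ends differed. Height 10 or more was reached by 3.61% here and by 9.17% in GFP only alone. It was reached by 2.37% in mCherry only alone and by 4.52% in double positive alone. Median width was 303 bp (302 to 305) here, 271 bp (270 to 272) in GFP only alone, 256 bp (254 to 257) in mCherry only alone and 242 bp (241 to 245) in double positive alone. From height 6 to 8 the median widths were 392, 304, 296 and 286 bp in the same order. With lists of equal length the median heights differed, at 6.94, 6.33, 5.83 and 4.41, with widths of 442, 333, 310 and 259 bp. In the lists as deposited the double negative regions were thus the widest of the 4 classes from height 6 to 8 too, while above height 20 the GFP only regions were wider, at 538 bp. Among double negative regions 6.12% (5.92 to 6.33) were 600 bp wide or more, against 2.43% in GFP only alone, 1.36% in mCherry only alone and 0.445% in double positive alone. The summit lay near the middle, at a median of 48.6% of the width.

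The 5 widest regions were 1458 to 1700 bp long and of moderate height, with 32 to 58 reads. The widest, chr23:23024804-23026503, held 42 reads (30.3 to 56.8) and had a fold of 3.59. Another on chromosome 23 spanned 4919353 to 4920905 with 52 reads (38.8 to 68.2), and no peak of another list lay within 8421 bp. The highest fold of the 5, at 8.10, was that of chr7:51194494-51196020, with 58 reads (44.0 to 74.98). The last ones were chr3:42923868-42925361 with 32 reads and chr14:28223833-28225290 with 35 reads. All 5 thus had fewer reads than any of the 10 regions of highest fold.

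Most double negative regions lay kilobases away from the called peaks of other fractions. Openings too weak to be called are not counted. The gap is the number of bases between the edges of 2 peaks. The median gap to the nearest peak of any other list was 3028 bp (quartiles 1578 and 5855), and the 95th percentile was 13557 bp. For GFP only alone the median gap to any other list was 2326 bp. It was 2127 bp for mCherry only alone and 1815 bp for double positive alone. The targets are unlike: for these other classes they include the double negative list, the longest with 166282 peaks. Gaps to the same target list are given further below. Only 9.72% of the double negative regions lay within 500 bp and 16.9% within 1 kb, while 69.3% lay within 5 kb and 89.7% within 10 kb. Most of the class thus lay well clear of the border of the overlap rule.

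By list, the median gap was 4296 bp to GFP only (4240 to 4347), 4586 bp to mCherry only (4532 to 4638) and 7698 bp to double positive (7600 to 7802). The nearest peak belonged to GFP only for 43.2% of the regions, to mCherry only for 41.3% and to double positive for 14.5%, and 0.918% were at the same distance from more than 1 list. The lists differ in length, with 138364, 134260 and 90687 peaks on these chromosomes, and the order of the gaps is the reverse of the order of the lengths. With lists cut to equal length the gaps were close, at 7220.5 bp to GFP only (7097 to 7362), 7274 bp to mCherry only (7128 to 7418) and 7554 bp to double positive (7419 to 7689). The shares of the nearest list were not worked out at equal length. The peaks met at the near end were lower than their lists as a whole. These were taken once per region, so 1 peak could count more than once. The nearest GFP only peak had a median height of 4.69 against 5.86 over the list, the nearest mCherry only peak 4.93 against 6.28, and the nearest double positive peak 5.23 against 7.16. They were also less often called in all lists: 30.9% of the nearest GFP only peaks were, against 40.7% of that list. The shares that overlapped a double negative peak were closer, at 67.4% against 68.4% for GFP only. They were 74.1% against 72.1% for mCherry only and 73.1% against 74.3% for double positive. The peaks nearest to regions of the other classes were not compared in this way.

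To the same target list, double negative regions lay farther away than the regions that any other list held alone. To double positive peaks the median gap was 7698 bp from double negative alone, 5707 bp from GFP only alone (5620 to 5822) and 5305 bp from mCherry only alone (5187 to 5421). To mCherry only peaks it was 4586 bp against 3737 bp from GFP only alone. To GFP only peaks it was 4296 bp against 3372 bp from mCherry only alone. Double negative regions were also the farthest within each of 3 ranges of height, for all 3 target lists. At height 8 or more, for example, the gap to GFP only peaks was 2883.5 bp from double negative alone (2796 to 2988), 2136 bp from mCherry only alone and 1787 bp from double positive alone. They remained the farthest, for all 3 target lists, with −log10 q of 5 or more in every list and with lists cut to equal length. With equal length the gap to double positive peaks was 7554 bp from double negative alone (7419 to 7689), 5129 bp from GFP only alone and 4720 bp from mCherry only alone.

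**Figure D3:**
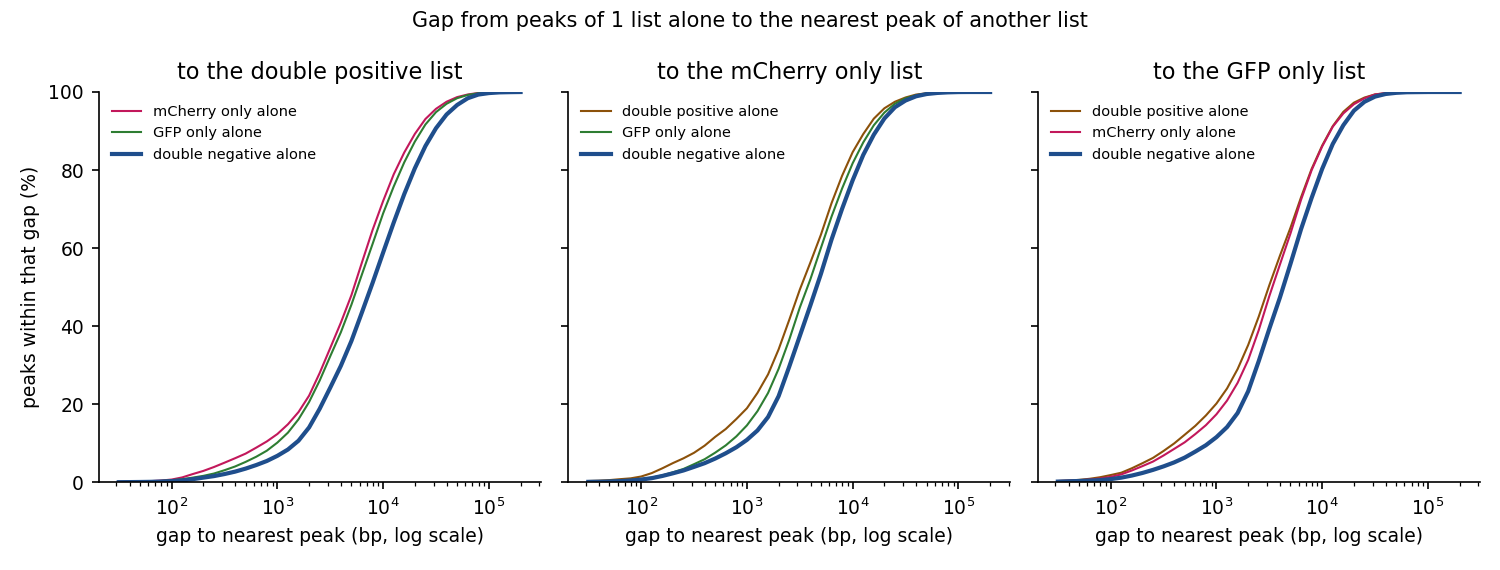
Percent of the peaks of each class (y axis) whose gap to the nearest peak of the named list is at most the value on the x axis, in bp on a log scale. Each line is the set of peaks called in 1 list alone. In every panel the double negative line lies to the right, with medians of 7698, 4586 and 4296 bp from the left panel to the right one.

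Double negative peaks that had a partner in another list lay closer to the lists that lacked them. The median gap to double positive was 6334 bp for peaks shared with mCherry only and 6348.5 bp for those shared with GFP only, against 7698 bp for regions with no partner. It was 5701 bp for peaks shared with both. For the gap to mCherry only, peaks shared with GFP only had a median of 3832.5 bp against 4586 bp. The regions called in double negative alone thus had the largest median gap to each of the 3 lists. These classes were not matched for height. Median height was 5.38 for peaks shared with mCherry only, 4.93 for those shared with GFP only and 4.48 for regions with no partner. The part of height in these gaps was not tested.

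Median height differed by 2 reads between the nearest and the farthest regions, while tall regions were more frequent near other peaks. The median height was 4.70 for regions under 500 bp from another peak, 4.70 from 2 to 5 kb and 4.26 for the 797 regions at 20 kb or more. Regions of height 10 or more made up 5.54% of those under 500 bp (275 of 4962) and 1.38% of those at 20 kb or more (11 of 797). From the side of height, the median gap to double positive peaks was 8652 bp for regions below height 5 and 4382.5 bp for those of height 8 or more. The median fold was 3.27 under 500 bp and 3.66 beyond 5 kb. Median width went from 271 bp under 500 bp to 319 bp from 10 to 20 kb. The expected background exceeded the genome-wide value in 66.8% of the regions under 500 bp and in 53.3% from 2 to 5 kb. It did so in 23.8% from 5 to 10 kb and in 17.3% at 20 kb or more. The part of the expected background in the fold and in the share of tall regions was not tested.

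The 5 regions farthest from any other list all lay on chromosome 14 within 29.7 kb of each other, from 42244817 to 42274545. Their gaps were 58913 to 85546 bp. The farthest, from 42273860 to 42274545, had 21 reads (13.0 to 32.1), a fold of 4.03 and a width of 686 bp. The one with the most reads, from 42244817 to 42245296, had 34 reads (23.5 to 47.5) and a fold of 6.40. The other 3 had 15, 19 and 25 reads. In this interval only double negative cells had called peaks, and these were of ordinary height, at 3.36 to 7.61.

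These 5 belonged to a stretch of 12 regions in a row with no peak of another list between them, from 42190494 to 42351065. The peaks of other lists on either side were 174 kb apart. The 12 had heights of 3.36 to 10.3 with a median of 5.38. Over the genome the 51181 regions fell into 34913 such unbroken stretches, of which 71.5% held 1 region and 18.3% held 2. There were 645 stretches of 5 to 9 regions and 16 of 10 or more. Together those with 5 or more held 3884 regions. The longest stretches were chosen after their values were seen.

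The 12 regions on chromosome 14 were matched in number by stretches on chromosomes 17, 6 and 25. On chromosome 17 the stretch ran from 14168282 to 14273340 with a median height of 4.14. On chromosome 6 it ran from 46149093 to 46225804 with a median height of 4.70. On chromosome 25 it ran from 7166853 to 7239709 and included a region of 57 reads, the tallest in the 4 stretches at a height of 12.8. In all 4 of these stretches the lowest region had 13 to 15 reads and the medians stayed between 4.14 and 5.38.

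Regions of the double negative fraction alone followed each other along the chromosomes. After a double negative peak called in no other list, the next double negative peak was again such a region in 41.1% of cases (40.7 to 41.5), and after a shared peak in 26.2% (25.9 to 26.5). This held at each height of the next peak. Where the next peak was below height 5 the shares were 59.0% and 43.9%, from 5 to 8 they were 39.2% and 26.9%, and at 8 or more they were 13.2% (12.7 to 13.8) and 7.46% (7.20 to 7.72). The same pair of shares was 27.6% and 20.2% for GFP only, 17.1% and 12.2% for mCherry only, and 10.4% and 7.72% for double positive. The median distance between summits of neighbouring regions was 13.3 kb (quartiles 5.81 and 30.5).

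Chained over gaps of at most 20 kb between summits, 45.4% of the regions lay in runs of 5 or more. This joining gap is longer than the median distance of 13.3 kb between summits of neighbouring regions. Of the 2847 runs, 654 held 10 regions or more, 86 held 20 or more and 10 held 30 or more, and the median run spanned 48.9 kb. Only 17.2% of the regions stood alone at this distance. More peaks chain more readily, so the classes were also set side by side at equal numbers, each time with the strongest double negative regions by −log10 q. The other classes were kept whole with their weak peaks, so number was matched but strength was not. As many double negative regions as GFP only had alone (30143) formed 1118 runs against 646. As many as mCherry only had alone (17185) formed 260 against 125, and as many as double positive had alone (7190) formed 11 against 3. In the same order the runs held 24.8% against 13.4%, 9.14% against 4.18% and 0.890% against 0.209% of the regions. With all lists cut to the same length, 24560 double negative regions formed 729 runs and 20402 GFP only regions formed 394. These runs held 19.1% of the double negative regions and 12.3% of the GFP only regions. In the same setting 16481 double positive regions formed 79 runs and 9884 mCherry only regions formed 33, which reversed the order of those classes.

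Inside these runs double negative peaks, with the regions themselves counted, were denser than over the genome, and peaks of the other lists were sparser. The 2847 runs covered 164 Mb, or 12.1% of the length up to the last peaks, and held 34795 double negative peaks, of which 66.7% were called in that list alone. Over the same bases GFP only had 12273 peaks, mCherry only 11756 and double positive 6452. Relative to the whole length, the number of peaks per Mb in the runs was 1.73 times as high for double negative, 0.733 times for GFP only, 0.724 times for mCherry only and 0.588 times for double positive. Runs were built from double negative regions that other lists lack, and 23218 of the 34795 peaks were those regions themselves. The higher density of double negative peaks is therefore set by construction, and part of the lower density of other lists follows from it. The rest of the 34795 were shared peaks, out of 115101 shared double negative peaks on all chromosomes. That is a smaller share than the 12.1% of the length, so shared double negative peaks were sparser in the runs too. How far the construction sets this was not tested.

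The longest run held 60 regions on chromosome 16 from 76095 to 520841. It lay among much shared open chromatin: the double negative list had 104 peaks there, GFP only 58, mCherry only 55 and double positive 29. Of the 44 shared double negative peaks, 19 were called in all 4 lists. The 60 regions had heights of 2.91 to 11.6 with a median of 5.60, and their median gap to another list was 1902 bp, below that of all regions.

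The other leading runs held fewer peaks of each other fraction. On chromosome 4, 46 regions lay from 9204619 to 9471127, where double negative had 68 peaks, mCherry only 20, GFP only 16 and double positive 7. On chromosome 6, 45 regions lay from 4882774 to 5211834 among 67 double negative peaks, and 12 of the 22 shared peaks there were called in all lists. A second run on chromosome 6, from 44428768 to 44709055, held 41 regions among 50 double negative peaks, or 82.0%, with 10 mCherry only peaks and 6 each of GFP only and double positive. Their median gap of 7121 bp was the longest of the 5 runs.

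The run on chromosome 24 from 24935448 to 25126903 was the densest and the tallest of the 5. It held 39 regions in 191 kb, or 20.4 in 100 kb, against 13.5 to 17.3 in the other runs. Their heights were 3.14 to 13.7 with a median of 6.72, and 7 of them reached height 10, against 3 in the run on chromosome 16 and none in the others. The double negative list had 49 peaks there, mCherry only 10, and GFP only and double positive 7 each. With a median width of 374 bp these regions were also the widest of the 5 runs.

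**Figure D4:**
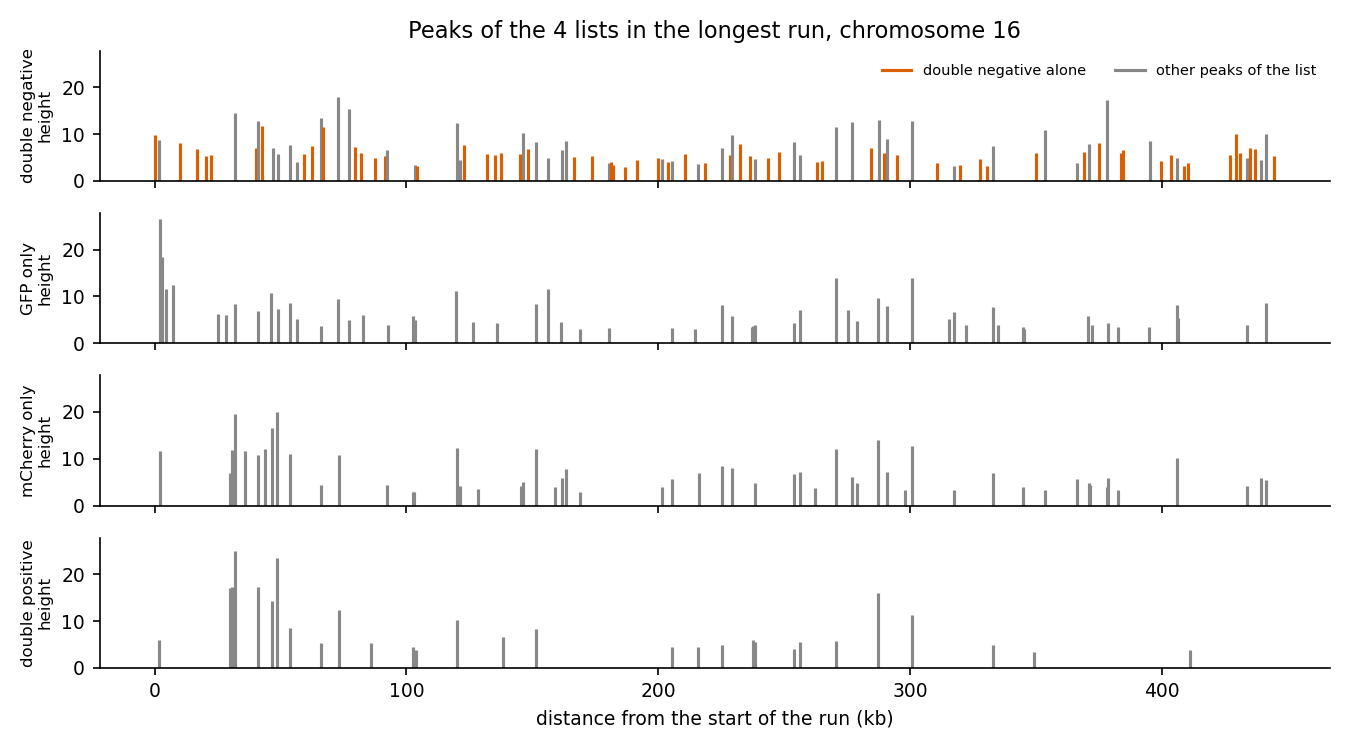
Peaks of the 4 lists in the longest run, by distance from its start in kb (x axis) and height in reads over background (y axis, the same in all panels). Orange lines are the 60 double negative peaks called in no other list, and grey lines are all other peaks. The orange lines are at most 11.6 high and spread over the whole 445 kb, between shared peaks.

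The regions were spread over all 25 chromosomes at similar shares. Between 27.2% and 33.7% of the double negative peaks of a chromosome were called in no other list, with a median of 30.5%. The highest shares were those of chromosomes 24 (33.7%, 32.5 to 35.0), 14 (33.0%, 31.9 to 34.1) and 6 (32.9%, 31.8 to 33.9). The lowest were those of chromosomes 23 (27.2%, 26.1 to 28.4), 22 (28.4%, 27.2 to 29.7) and 3 (29.0%, 28.0 to 30.1). There were 32.8 to 42.9 regions per Mb up to the last peak of a chromosome, fewest on chromosome 22 and most on chromosome 18. Median height differed by no more than 1 read, at 4.48 or 4.70 on every chromosome.

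**Figure D5:**
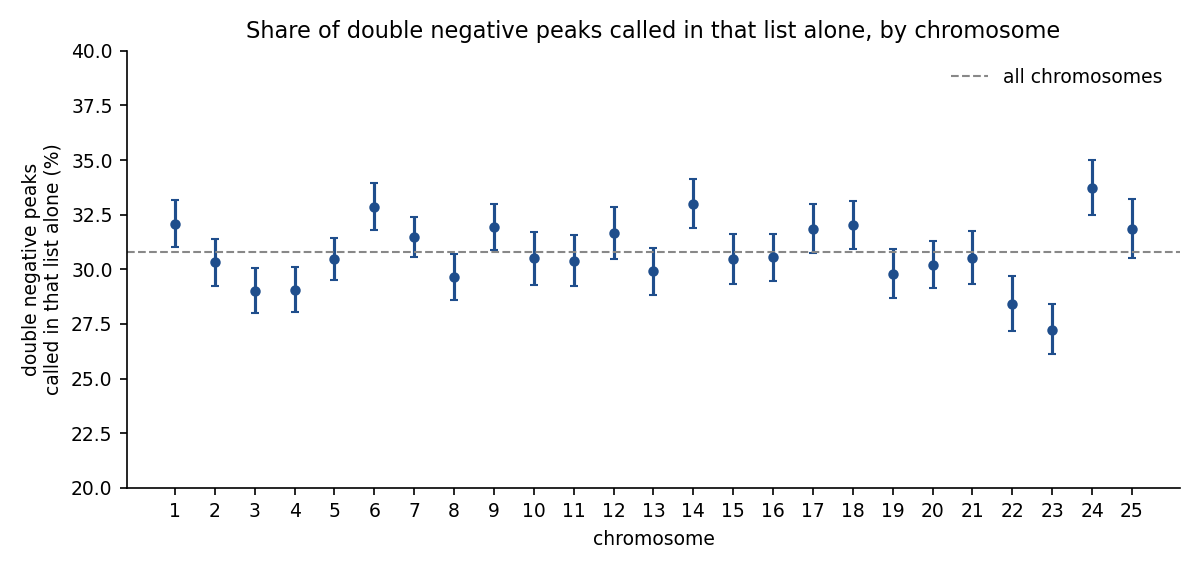
Percent of the double negative peaks of each chromosome that overlap no peak of the other lists (y axis, from 20 to 40%), with Wilson 95% intervals. The dashed line is the share over all chromosomes, 30.8%. Chromosome 24 is highest at 33.7% and chromosome 23 lowest at 27.2%.

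Chromosome 4 was divided. Beyond 25 Mb, 732 of 3139 double negative peaks were called in that list alone (23.3%, 21.9 to 24.8), and before it 1349 of 4021 were (33.5%, 32.1 to 35.0). Within 1 Mb of the ends of chromosomes, taken from position 1 and from the last peak, the share was 28.9% (27.9 to 29.9) against 30.9% elsewhere. The median gap to other lists was 2130 bp near the ends and 3076 bp elsewhere.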

How the data were processed

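ATAC-seq of 12 samples, 3 in each of 4 sorted fractions, was analysed from 1 deposited narrowPeak list per fraction. The submitters' processing notes name the build danRer7, the aligner Bowtie2 2.2.1 and the peak caller MACS2 2.1.0. Caller settings, read filters, Tn5 offsets and pooling were not given in the sources used here. The authors deposited for each peak a display score (not used further), a fold (the ratio of summit signal to expected background), the −log10 of p and of q, and a summit offset in bp, which is the other deposited column.

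Reads at a summit are the whole number that gives both the fold, with a pseudocount of 1, and the −log10 p under a Poisson tail. The largest misfit of −log10 p was 0.000382, and any other whole number missed by 0.00808 or more. This model is inferred from the values. The lowest expected background of a list was its genome-wide background, 4.47 reads for double negative, 4.26 for GFP only, 4.46 for mCherry only and 3.63 for double positive. These backgrounds stand for depth, since no read totals are in the lists. Gaps, overlaps and runs were computed with Python 3.11.15, numpy 2.4.6 and pandas 2.3.3, with SciPy 1.17.1 for intervals, and tested on simulated data. Intervals of medians come from binomial order statistics.

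Regions were named by rule: the 10 with the highest fold, the 5 widest, the 5 farthest from other lists, the 5 longest runs and the 3 highest and 3 lowest chromosomes. Regions of height 20 or more, stretches and windows were chosen after their values were seen. Intervals given for regions named as extremes do not cover that choice. The regions and measures were chosen with earlier results of these data known. No danRer7 genome or annotation was used, so neither sequences nor genes are given.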

Additional observations from a re-analysis of the deposited data

How the results depend on the processing

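No paired analysis was possible because the labels name 1 peak list for all 3 samples of a fraction, and for the same reason no replicate could be left out. Shares in this paragraph are of the double negative peaks that each setting kept. With −log10 q of 5 or more asked of double negative peaks there were 28744 regions, or 23.3% of the peaks kept. Their median height was 5.60 and their median width 359 bp, and they formed 1002 runs. With −log10 q of 5 or more in every list, they were 33.5% of the peaks kept. Height was then 5.82, width 384 bp and the median gap to other lists 4546 bp. With reciprocal overlap of 50%, they were 38.9%, with height 4.70, width 318 bp and a gap of 2235 bp, overlaps counted as 0. With peaks within 500 bp taken as shared, they were 27.8%, with width 307 bp and a gap of 3418 bp. With lists of equal length there were 24560 (27.1%, height 6.94, width 442 bp, gap 4550.5 bp, 729 runs). At height 10 or more there were 1848 (5.08%, height 11.4, width 470 bp, gap 2099.5 bp, 2 runs). Stricter thresholds shorten the class or the lists by construction. Runs numbered 1196 with a joining gap of 10 kb and 2801 with a joining gap of 50 kb. Among the strongest regions there were 1118, 260 and 11 runs, at numbers equal to those of GFP only, mCherry only and double positive alone. These 3 settings, and the gaps and runs of all classes under other thresholds and lengths, were chosen after seeing the data. Of 67 alternative values 10 stayed within 1.5 times the reported count or within the interval of the reported share or median. The lowest of these regions had 11 reads at the summit, and weaker openings were not detectable at this depth.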

Other observations

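In windows of 1 Mb with at least 50 double negative peaks (1357 windows), the share called in that list alone ran from 6.25% to 65.0%, with a median of 29.1% (quartiles 23.2 and 36.7). In 56 windows it was 50% or more. The highest window lay on chromosome 17 from 13 to 14 Mb, where 80 of 123 double negative peaks were called in no other list (65.0%, Wilson 95% interval 56.3 to 72.9). Double positive had 19 peaks there, mCherry only 39 and GFP only 58. The windows that followed lay on chromosome 12 from 42 to 43 Mb (64.9%), chromosome 1 from 3 to 4 Mb (62.9%), chromosome 11 from 9 to 10 Mb (62.6%) and chromosome 8 from 6 to 7 Mb (62.1%). In these 5 windows the double positive list held 19 to 26 peaks.

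At the other extreme was chromosome 11 from 12 to 13 Mb, a window that starts 3 Mb after the start of the window with 62.6%. There, 6 of 96 double negative peaks were called in no other list (6.25%, 2.90 to 13.0). Chromosome 22 followed with 8.16% from 10 to 11 Mb and 9.47% from 11 to 12 Mb. In both of these windows mCherry only had more peaks than double negative, 131 against 98 and 171 against 169. GFP only had 116 and 154. The other lowest windows had more mCherry only than double negative peaks too. These were 102 against 96 on chromosome 11, 100 against 92 on chromosome 15 (1 to 2 Mb) and 61 against 60 on chromosome 4 (58 to 59 Mb). GFP only had 115, 102 and 81 in them. In all of the lowest windows double negative peaks were taller, with median heights of 6.16 to 10.8, against 4.70 to 4.93 in the 5 highest windows. The share called in that list alone falls with height over the whole list. A ranking by that share therefore leans this way by construction, and how far was not tested. The chromosome 22 windows had the tallest, at 8.17 and 10.8. Across the 1357 windows, which share 1 peak list per fraction, the share and the number of double negative peaks had a Pearson r of 0.11 and a Spearman rho of 0.13, given as a description. Windows were chosen after their values were seen. They were ranked by overlap with the other lists. Few peaks of those lists in the highest windows and many in the lowest thus follow in part from the ranking.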
